A study of Mus musculus with 24 samples.

Results

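The genes described here are 43 genes of Wnt signalling, a pathway of secreted lipid-modified proteins and their receptors: 10 Wnt ligands, the acyltransferase gene Porcn, 10 receptors and co-receptors, 8 genes of the R-spondin axis, 8 secreted antagonists, and 6 genes of signal transduction and targets. They were chosen by name, and each had a row, found through its Ensembl identifier and its GENCODE mouse symbol, among the 48795 gene identifiers of the epithelial and of the mesenchymal table. A member was tested where its normalised count reached 10 in at least 4 of the 12 libraries of a table, which 38 members did in the epithelial and 39 in the mesenchymal fraction. RNA came from lungs of female Balb/c mice aged 8 weeks and taken 7 days after treatment. Depleted mice had received 13 Gy to the lungs with a daily antibody against Ly6G, a neutrophil surface protein. Irradiated mice had received 13 Gy with an IgG control antibody, and sham mice a sham irradiation with the same IgG. Neutrophil depletion without irradiation is not among these groups, so depleted against sham holds the effects of both treatments. Lung cells negative for leukocyte, endothelial and erythroid surface markers were sorted on EpCAM into a positive epithelial and a negative mesenchymal fraction, with 4 libraries from 4 mice in each of the 6 groups.

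Wnt ligands bind Frizzled receptors with the co-receptors Lrp5 and Lrp6, which stops the destruction of β-catenin (gene Ctnnb1) and lets it act with Tcf7 and Lef1 on target genes. Znrf3 and Rnf43 remove Frizzled receptors from the cell surface, and R-spondins, bound to Lgr receptors, counter them, while secreted proteins of the Sfrp, Dkk and Wif families hold ligands or co-receptors back. Axin2, Nkd1, Notum and Znrf3 are targets that also restrain the pathway. In the lung, Wnt signals from fibroblasts support the alveolar type 2 cells that renew the alveolar epithelium.

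Depth, as recovered reads in a library, was 8159062 to 13373329 for epithelial and 7366672 to 11408083 for mesenchymal RNA. The 6 genes of a p53 response list (Cdkn1a, Mdm2, Phlda3, Bax, Eda2r and Ccng1) rose in depleted and in irradiated against sham libraries of both fractions. The 9 alveolar type 2 markers summed to normalised counts of 769058 to 874331 in the epithelial libraries of the irradiated groups and of 788988 to 853020 in sham, and the 7 pan-mesenchymal markers to at least 127196 in every mesenchymal library. The protocol text repeats the leukocyte marker where the cell type label names the endothelial one, so the endothelial gate rests on that label. Markers of cells outside the gates were present: the mean log2 level of 8 epithelial neutrophil markers was 5.20 ± 0.574 in depleted, 5.08 ± 0.704 in irradiated and 3.05 ± 0.437 in sham libraries (SD, n = 4 each). Depleted minus irradiated epithelial libraries differed by 0.12 in that level (exact two-sided permutation p = 0.686), with 0 of the 8 markers called. In the mesenchymal fraction the neutrophil level differed by -0.21 between these groups (exact two-sided permutation p = 0.543). There, 2 of 9 neutrophil markers were called lower in depleted libraries and 0 higher. In bulk RNA, fewer cells of a type and less RNA per cell cannot be told apart.

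Within a fraction, levels between genes were compared as the mean normalised count per kilobase of exon union over 12 libraries. Ctnnb1 had the highest epithelial level with 2237 per kilobase, followed by Nkd1 with 649 and Ccnd1, which codes for cyclin D1, with 306. Lrp5 led the epithelial receptors with 213, Znrf3 the R-spondin axis with 97.8, Notum, an enzyme that removes the lipid from Wnt proteins, the antagonists with 62.6, and Wnt2b the ligands with 20.3. Mesenchymal levels were led by Dkk3, a secreted protein of the Dickkopf family, with 692 per kilobase, then Ctnnb1 with 538 and the receptor gene Fzd1 with 330. Wnt2, a ligand of lung mesenchyme, was the highest mesenchymal ligand with 261, and Lgr6 led the R-spondin axis with 91.7. The members left untested in the epithelial fraction were Rspo2, Rspo3, Frzb, Dkk2 and Sfrp4, and in the mesenchymal fraction Wnt3a, Wnt7a, Wnt7b and Dkk2. Their highest epithelial normalised counts were 4.47 for Rspo2, 4.85 for Rspo3, 2.41 for Frzb and 6.73 for Dkk2, and the highest mesenchymal ones 9.28 for Wnt3a, 3.31 for Wnt7b and 9.28 for Dkk2. Nearest to the filter outside it were epithelial Sfrp4 and mesenchymal Wnt7a, each reaching 10 in 2 libraries with a highest value of 11.7, and nearest inside it were epithelial Wnt5b and Lgr5, which reached 10 in 5 libraries.

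**Figure D1:**
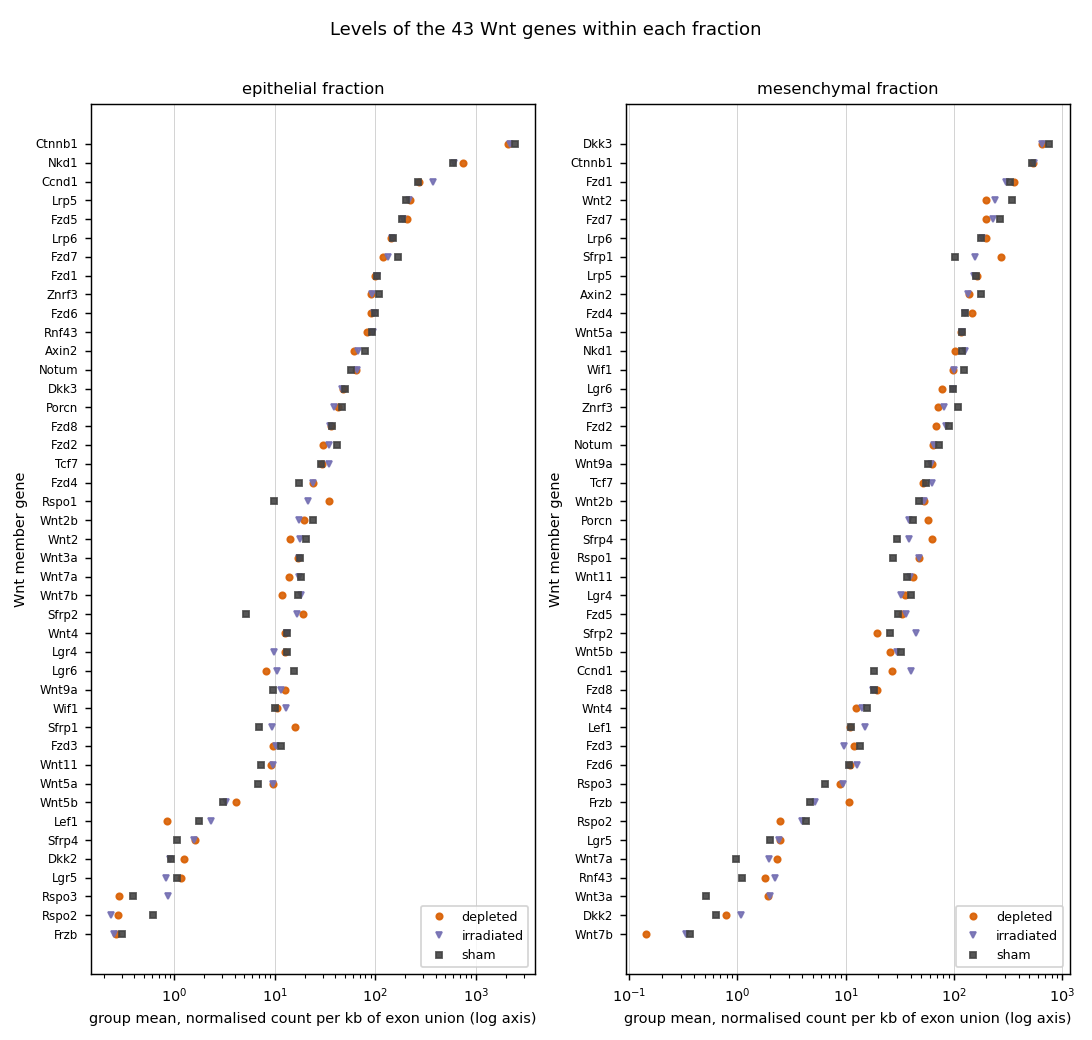
Group mean normalised count per kilobase of exon union (log axis) of the 43 Wnt genes in the epithelial (left) and mesenchymal (right) fraction, with depleted, irradiated and sham means as separate symbols. Ctnnb1 led the epithelial list with 2237 per kilobase and Dkk3 the mesenchymal list with 692, both as means over 12 libraries, and the means of the 3 groups lay close together for most genes.

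A gene was called changed at an adjusted p under 0.05 in limma, adjusted over all genes tested in the table. Depleted against sham, 9 of 38 epithelial members were called (11.3% of all tested genes), 4 higher (background 6.52%) and 5 lower (4.76%). In the mesenchymal fraction 8 of 39 were called (background 15.2%), 4 higher (8.51%) and 4 lower (6.7%). Irradiated against sham, 4 of 38 epithelial members were called (background 3.14%), 2 higher (2.26%) and 2 lower (0.878%), and 3 of 39 mesenchymal members (background 3.8%), 2 higher (2.64%) and 1 lower (1.15%). Depleted against irradiated, limma called 0 of 38 epithelial members (background 0.475%, with 0.204% higher and 0.271% lower). At an unadjusted p under 0.05 in limma there were 7. The share of all genes at that level is not given here, so the 7 are not read as an excess. EdgeR called 0 members beside 92 of all genes, and DESeq2 called 2 beside 289. In the mesenchymal fraction limma called 1 of 39, higher (background 2.02% higher, 0.674% lower and 2.69% in all). The members' median log2 changes ran from -0.05 to 0.02 over these 6 comparisons, beside medians between -0.01 and 0.00 over all tested genes. Single genes changed in opposite directions, with medians close to 0. Counted by libraries that did not overlap, depleted against sham, 4 epithelial members lay wholly above (8.76% of tested genes) and 5 below (7.89%), and 5 mesenchymal members above (10.3%) and 4 below (9.07%). Irradiated against sham, these were 5 epithelial members above (4.94%) and 2 below (3.89%), and 4 mesenchymal members above (6.26%) and 3 below (5.55%). Depleted against irradiated, they were 0 epithelial members above (3.24%) and 1 below (3.18%), and 4 mesenchymal members above (6.09%) and 3 below (3.93%).

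**Figure D2:**
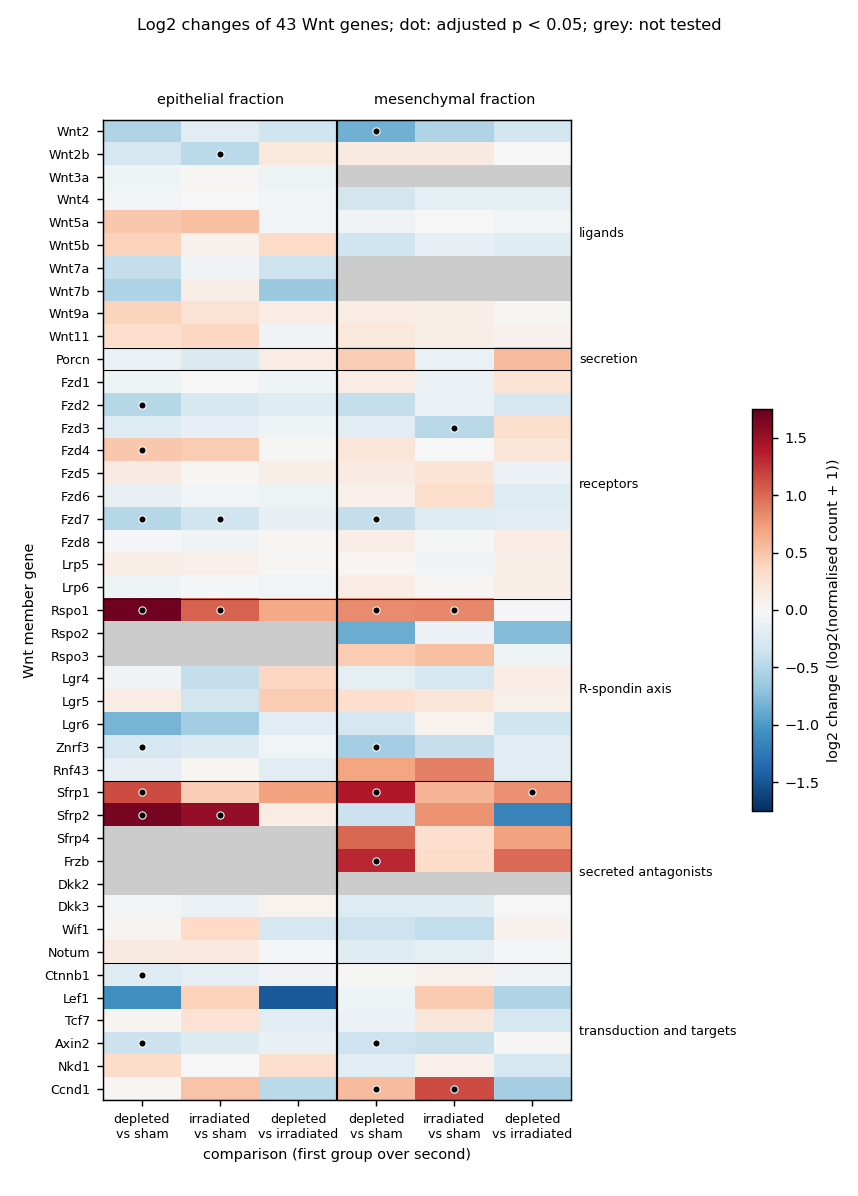
Log2 changes (colour; difference of mean log2(normalised count + 1), first group over second) of the 43 Wnt genes by role in the 6 comparisons within the fractions, with a dot where adjusted p was under 0.05 and grey where a gene was not tested. Rspo1 and Sfrp1 carry dots for higher levels in both fractions, depleted against sham, and Fzd7, Znrf3 and Axin2 for lower levels.

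Of the genes called in depleted against sham, 5 were called in both fractions with the same direction: Rspo1 and Sfrp1 were higher, and Fzd7, Znrf3 and Axin2 lower. That is 5 of 9 epithelial and 5 of 8 mesenchymal calls. Over the 15092 genes tested in both tables, 594 (3.94%) were called the same way in both, which is 34.1% of the epithelial and 25.4% of the mesenchymal calls among them. The comparisons that follow share the sham libraries within a fraction, and changes are log2 differences ± SE of the limma fit.

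Rspo1 codes for R-spondin 1, a secreted protein that strengthens Wnt signals by taking Znrf3 and Rnf43 off the cell surface. Epithelial Rspo1 had normalised counts of 49.4, 45.8, 86.9 and 85.0 in depleted libraries, 30.3, 37.8, 33.2 and 65.9 in irradiated libraries, and 18.5, 17.0, 17.9 and 22.9 in sham libraries. Every depleted and every irradiated library lay above every sham library. The change was 1.70 ± 0.257 depleted against sham (adjusted p = 0.000419) and 1.03 ± 0.257 irradiated against sham (adjusted p = 0.0343). The second call ended without any 1 of sham replicates 1 to 4 or irradiated replicates 2 and 4 (adjusted p up to 0.125), and the first held without any single library. Mesenchymal Rspo1 had 104, 88.2, 89.9 and 84.7 in depleted, 101, 94.5, 75.3 and 101 in irradiated, and 60.9, 74.5, 33.3 and 44.9 in sham libraries. Both irradiated groups lay above sham, with changes of 0.83 ± 0.200 depleted against sham (adjusted p = 0.0115) and 0.84 ± 0.200 irradiated against sham (adjusted p = 0.0316). The irradiated call ended when sham replicate 3 or 4, or irradiated replicate 1, 2 or 4, was left out (adjusted p up to 0.0974). Depleted and irradiated mesenchymal libraries overlapped, with a difference of -0.02 ± 0.200 (adjusted p = 0.978).

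Epithelial Rspo1 stood beside markers of mesothelium, the cell layer that covers the lung. Depleted against sham, 6 of 9 mesothelial markers rose in the epithelial fraction, and their mean log2 level was 7.13 ± 0.716 in depleted, 6.21 ± 0.632 in irradiated and 5.48 ± 0.220 in sham libraries (SD, n = 4 each). Depleted and sham levels differed by 1.65 (exact two-sided permutation p = 0.0286, the smallest that 4 against 4 allows). Summed over the list, normalised counts were 1027 to 2691 in depleted, 654 to 1801 in irradiated and 517 to 764 in sham libraries, and no marker was at 0 in all 12. Depleted replicates 3 and 4, the highest for epithelial Rspo1, had the highest mesothelial levels of the table, 7.71 and 7.76. With the mesothelial level as a covariate, an alternative added after seeing the data, the Rspo1 change was 0.56 ± 0.285 depleted against sham (adjusted p = 0.465). That fit called 0 of the 38 epithelial members and 107 of 16626 genes, against 1876 genes without the covariate. The epithelial Rspo1 change was 0.25 ± 0.409 with the mesenchymal marker covariate (adjusted p = 0.912). With the leukocyte covariate the call held (1.93 ± 0.393, adjusted p = 0.0225). The part of mesothelial cells in the epithelial Rspo1 result was not tested. In the mesenchymal fraction the mesothelial level differed by 0.36 (exact permutation p = 0.371), and with it as a covariate mesenchymal Rspo1 was 0.64 ± 0.162 higher in depleted than in sham libraries (adjusted p = 0.018). The mesenchymal call ended with each of the other 3 marker levels as a covariate, at 0.57 ± 0.229 with leukocyte (adjusted p = 0.150), 0.39 ± 0.256 with epithelial (adjusted p = 0.468) and 0.36 ± 0.248 with alveolar fibroblast markers (adjusted p = 0.547).

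Sfrp1 codes for a secreted Frizzled-related protein that binds Wnt ligands outside the cell. Its mesenchymal normalised counts were 1339, 869, 1329 and 1231 in depleted, 763, 719, 548 and 685 in irradiated, and 336, 510, 421 and 545 in sham libraries. The 3 groups did not overlap. Depleted libraries were 2.64-fold higher than sham (log2 1.40 ± 0.173, adjusted p = 0.000247) and 1.74-fold higher than irradiated libraries (0.80 ± 0.173, adjusted p = 0.0312), and irradiated libraries were 0.60 ± 0.173 above sham without passing the threshold (adjusted p = 0.0752). The call against sham held in all 27 alternatives, where the log2 change ran from 1.26 to 1.57 and adjusted p reached at most 0.0276. The call against irradiated libraries, the single member call of that comparison, ended when any 1 of irradiated replicates 2 to 4 was left out, as with depleted replicates 1, 3 and 4 (adjusted p up to 0.108). Epithelial Sfrp1 had 84.2, 45.8, 80.1 and 67.0 in depleted, 47.0, 45.7, 32.4 and 40.2 in irradiated, and 25.4, 29.7, 34.8 and 31.2 in sham libraries. Every depleted library exceeded every sham library (1.14 ± 0.201, adjusted p = 0.00147), and depleted against irradiated gave 0.71 ± 0.201 (adjusted p = 0.132). With the mesothelial covariate the epithelial change against sham was 0.76 ± 0.330 (adjusted p = 0.38). It was 0.53 ± 0.413 with the mesenchymal marker covariate (adjusted p = 0.782) and 1.24 ± 0.311 with the leukocyte covariate (adjusted p = 0.0791), so each of these covariates ended the call.

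Fzd7 codes for a Frizzled receptor. Its epithelial normalised counts were 614, 526, 587 and 462 in depleted, 586, 538, 719 and 579 in irradiated, and 715, 781, 806 and 773 in sham libraries. All depleted libraries lay below all sham libraries, while irradiated replicate 3 overlapped sham. Epithelial Fzd7 fell by 0.50 depleted against sham (SE 0.0926, adjusted p = 0.00249) and by 0.35 irradiated against sham (SE 0.0926, adjusted p = 0.0478). The irradiated call ended when any 1 of 8 libraries was left out: sham replicates 2 to 4, irradiated replicates 1, 2 and 4, and depleted replicates 2 and 3 (adjusted p up to 0.193). Mesenchymal Fzd7 had 899, 893, 996 and 827 in depleted, 1061, 1007, 1036 and 1039 in irradiated, and 1209, 1045, 1259 and 1300 in sham libraries. Depleted libraries lay below both other groups, with a fall of 0.41 against sham (SE 0.0759, adjusted p = 0.00199) and an uncalled difference of -0.20 ± 0.0759 against irradiated libraries (adjusted p = 0.174).

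Znrf3 codes for the membrane ubiquitin ligase that R-spondins counter. Epithelial Znrf3 had 745, 666, 773 and 657 in depleted, 772, 648, 809 and 719 in irradiated, and 856, 865, 857 and 897 in sham libraries, so both irradiated groups lay below sham. It fell by 0.29 depleted against sham (SE 0.0714, adjusted p = 0.0129), and the difference was -0.24 ± 0.0714 irradiated against sham (adjusted p = 0.078). Mesenchymal Znrf3 had 564, 569, 674 and 460 in depleted, 583, 588, 653 and 761 in irradiated, and 859, 717, 920 and 929 in sham libraries. Depleted libraries were below all sham libraries, a fall of 0.60 (SE 0.118, adjusted p = 0.00349). Of irradiated libraries only replicate 4 overlapped sham (-0.41 ± 0.118, adjusted p = 0.0685).

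Axin2, a scaffold of the complex that degrades β-catenin, is widely used as a readout of β-catenin signalling. Epithelial normalised counts were 398, 322, 330 and 309 in depleted, 301, 332, 456 and 412 in irradiated, and 427, 437, 460 and 425 in sham libraries. Depleted libraries lay below sham (-0.37 ± 0.112, adjusted p = 0.043), and irradiated libraries overlapped both groups. Mesenchymal counts were 851, 788, 665 and 713 in depleted, 711, 651, 815 and 793 in irradiated, and 875, 803, 1130 and 1093 in sham libraries, with overlap between the groups. The mesenchymal change was -0.36 ± 0.114 depleted against sham (adjusted p = 0.0447) and -0.38 ± 0.114 irradiated against sham, which limma did not call (adjusted p = 0.0715) and DESeq2 did (adjusted p = 0.0362). In the epithelial fraction it was -0.24 ± 0.112 irradiated against sham (adjusted p = 0.346). The epithelial call ended without any 1 of the sham replicates or depleted replicates 2, 3 and 4 (adjusted p up to 0.128), and the mesenchymal call when sham replicate 3 or 4 was left out, irradiated replicate 1 or 4, or any 1 of depleted replicates 2 to 4 (adjusted p up to 0.141).

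Pan-epithelial markers moved in both fractions, in opposite directions, depleted against sham, and the other epithelial lists did not all move. In the mesenchymal fraction 3 of 7 pan-epithelial markers rose, with a mean log2 level of 5.63 ± 0.252 in depleted, 5.48 ± 0.428 in irradiated and 4.65 ± 0.500 in sham libraries and summed counts of 387 to 613 in depleted, 334 to 638 in irradiated and 171 to 377 in sham libraries. There, 4 of 7 alveolar type 1 markers also rose (level difference 0.98) and 2 of 4 markers of club cells, secretory cells of the airway (1.12), each with the smallest exact permutation p possible, 0.0286. Of 9 alveolar type 2 markers 0 were called there (level difference 0.46, exact permutation p = 0.143). Of 3 tested markers of ciliated cells 0 rose and 1 fell (0.19, exact permutation p = 0.457). With the level of pan-epithelial and alveolar markers as a covariate, mesenchymal Sfrp1 stayed called (1.57 ± 0.258, adjusted p = 0.0078) and the 7 other mesenchymal calls ended. Their values were then -0.38 ± 0.156 for Znrf3 (adjusted p = 0.216), -0.28 ± 0.105 for Fzd7 (adjusted p = 0.168), -0.52 ± 0.258 for Wnt2 (adjusted p = 0.327) and -0.10 ± 0.140 for Axin2 (adjusted p = 0.771). Frzb was at 0.77 ± 0.553 (adjusted p = 0.508) and Ccnd1 at 0.11 ± 0.199 (adjusted p = 0.822), and that fit called 538 of 16624 genes, against 2528 without the covariate. In the epithelial fraction, where Fzd7, Znrf3, Axin2, Fzd2 and Ctnnb1 fell, 3 of 7 pan-epithelial markers fell as well. Their mean log2 level was 10.76 ± 0.0663 in depleted, 10.79 ± 0.0395 in irradiated and 10.96 ± 0.0658 in sham libraries (depleted minus sham -0.20, exact permutation p = 0.0286), and their summed counts were 17577 to 19920 in depleted, 19085 to 21192 in irradiated and 22273 to 23902 in sham libraries. In the same epithelial comparison, 0 of 9 alveolar type 2 markers were called (level difference 0.009, exact permutation p = 0.686). Likewise 0 of 7 alveolar type 1 markers (0.12, exact permutation p = 0.457) and 0 of 4 club cell markers (-0.10) were called. Among 7 ciliated markers 0 rose and 1 fell (0.0005). No pan-epithelial marker was at 0 in all libraries of a fraction, and the part of the pan-epithelial markers in the epithelial falls was not tested.

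**Figure D3:**
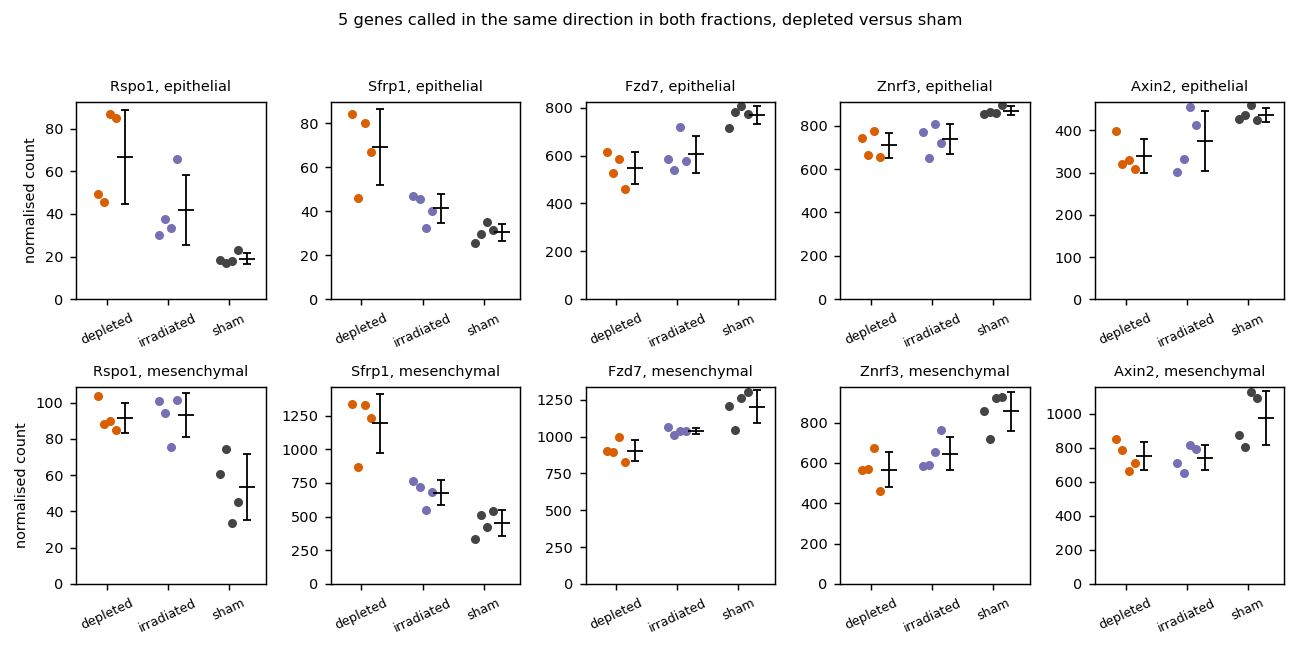
Normalised counts per library of Rspo1, Sfrp1, Fzd7, Znrf3 and Axin2 in the epithelial (top) and mesenchymal (bottom) fraction, with the mean and SD of 4 libraries beside each group. Depleted libraries of Sfrp1 in the mesenchymal fraction lie between 869 and 1339, above all irradiated (548 to 763) and sham (336 to 545) libraries.

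The promoters of these co-called genes are shown because they are the regions on which Tcf and Lef factors could be looked for by sequence. Of the 5, Rspo1, Fzd7 and Axin2 were in the RefSeq promoter table (GRCm38.p6, 250 bases before to 50 after the start), all on the plus strand and written 5′ to 3′. Capitals mark a match to the word CTTTGAA, the word CTTTGAT, the word CTTTGTA or the word CTTTGTT on either strand, which Tcf and Lef factors can bind.
Fzd7, chr1:59481897-59482196: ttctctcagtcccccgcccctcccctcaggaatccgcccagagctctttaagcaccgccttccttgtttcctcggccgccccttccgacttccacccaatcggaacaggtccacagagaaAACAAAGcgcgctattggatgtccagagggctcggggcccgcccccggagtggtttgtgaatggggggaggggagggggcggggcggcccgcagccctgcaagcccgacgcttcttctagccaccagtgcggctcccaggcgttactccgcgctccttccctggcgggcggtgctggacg
Axin2, chr11:108920099-108920398: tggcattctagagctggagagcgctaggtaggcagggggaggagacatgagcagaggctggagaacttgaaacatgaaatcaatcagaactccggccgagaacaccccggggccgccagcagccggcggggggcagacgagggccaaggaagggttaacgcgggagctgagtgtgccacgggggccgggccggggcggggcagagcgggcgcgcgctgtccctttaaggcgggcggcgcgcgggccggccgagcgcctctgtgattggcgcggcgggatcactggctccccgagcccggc
Rspo1, chr4:124986180-124986479: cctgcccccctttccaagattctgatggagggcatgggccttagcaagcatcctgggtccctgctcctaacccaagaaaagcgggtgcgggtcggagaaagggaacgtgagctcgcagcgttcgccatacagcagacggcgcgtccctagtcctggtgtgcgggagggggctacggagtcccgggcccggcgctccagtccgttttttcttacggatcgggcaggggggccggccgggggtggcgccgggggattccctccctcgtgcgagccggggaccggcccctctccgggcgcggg
The Fzd7 window held 1 match, read as AACAAAG, that began at position -130 from the start, and the Axin2 and Rspo1 windows held none of these letters. Among the 34 windows of the 25 members in the table, 4 held a match, and 16.9% of all 32851 windows of 300 bases did.

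Among ligands, 1 was called in each fraction, and they were different genes. Wnt2, made by lung mesenchyme, had mesenchymal normalised counts of 408, 474, 612 and 293 in depleted, 522, 448, 614 and 581 in irradiated, and 748, 655, 809 and 906 in sham libraries. Both irradiated groups lay below every sham library. Wnt2 fell by 0.84 depleted against sham (SE 0.191, adjusted p = 0.0122), and the difference was -0.52 ± 0.191 irradiated against sham (adjusted p = 0.145). Markers of alveolar fibroblasts moved with it: their mean log2 level was 12.7 ± 0.128 in depleted, 12.8 ± 0.142 in irradiated and 13.1 ± 0.264 in sham libraries, and 4 of 7 markers fell depleted against sham (level difference -0.42, exact permutation p = 0.0571). Summed normalised counts of that list were 64891 to 81171 in depleted, 71663 to 88735 in irradiated and 79899 to 116239 in sham libraries. With the alveolar fibroblast level as a covariate, added after seeing the data, Wnt2 differed by -0.32 ± 0.174 (adjusted p = 0.435), mesenchymal Znrf3 by -0.22 ± 0.109 (adjusted p = 0.363) and mesenchymal Fzd7 by -0.21 ± 0.0882 (adjusted p = 0.269). With it, mesenchymal Axin2 differed by -0.07 ± 0.131 (adjusted p = 0.852). That fit called 1 member, Sfrp1, and 397 of 16624 genes, against 2528 genes without the covariate. The part of alveolar fibroblasts in the Wnt2 result was not tested.

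Wnt2b, a related ligand, had epithelial normalised counts of 85.3, 75.0, 93.7 and 75.4 in depleted, 81.2, 70.9, 61.5 and 76.4 in irradiated, and 104, 105, 102 and 92.6 in sham libraries. Irradiated libraries lay below all sham libraries and depleted replicate 3 overlapped sham. The fall was 0.48 irradiated against sham (SE 0.125, adjusted p = 0.0448) and the difference -0.30 ± 0.125 depleted against sham (adjusted p = 0.147). The call ended without any 1 of sham replicates 1 to 4, irradiated replicates 2, 3 and 4 or depleted replicate 1 (adjusted p up to 0.135). In the mesenchymal fraction Wnt2b changed by 0.16 ± 0.119 irradiated against sham (adjusted p = 0.491). The remaining ligands passed in no comparison. The nearest was Wnt7b, an epithelial ligand of lung development, at 41.9 to 77.9 in depleted, 77.2 to 98.9 in irradiated and 75.3 to 104 in sham epithelial libraries (-0.53 ± 0.171 depleted against sham, adjusted p = 0.0522, and -0.65 ± 0.171 depleted against irradiated, adjusted p = 0.104). Mesenchymal Wnt5a, a ligand known for signalling without β-catenin, lay at 781 to 1042 in depleted, 798 to 1068 in irradiated and 901 to 969 in sham libraries. Epithelial Wnt2 lay at 22.9 to 55.2, Wnt5a at 38.1 to 90.3 and Wnt5b at 3.90 to 13.5, and mesenchymal Wnt2b at 166 to 263. Over all epithelial libraries Wnt3a lay at 32.3 to 74.5, Wnt4 at 48.3 to 64.7, Wnt7a at 25.4 to 79.0, Wnt9a at 26.0 to 50.5 and Wnt11 at 26.3 to 51.6. In mesenchymal libraries Wnt4 lay at 44.3 to 73.6, Wnt5b at 46.4 to 98.1, Wnt9a at 164 to 261 and Wnt11 at 116 to 204.

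Porcn codes for the enzyme that attaches the lipid Wnt ligands need for secretion. Mesenchymal Porcn had 160, 147, 155 and 226 in depleted, 103, 112, 109 and 140 in irradiated, and 106, 131, 124 and 143 in sham libraries. Every depleted library was above both other groups, yet neither difference passed the threshold (0.55 ± 0.145 against irradiated, adjusted p = 0.0552, and 0.43 ± 0.145 against sham, adjusted p = 0.0573). Epithelial Porcn had 139, 126, 134 and 110 in depleted, 99.8, 117, 125 and 121 in irradiated, and 118, 122, 163 and 153 in sham libraries, with overlap between all groups.

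Receptors other than Fzd7 were called in 1 fraction each. Epithelial Fzd4, a receptor also known for its role in vessels, had 165, 183, 139 and 166 in depleted, 156, 187, 130 and 174 in irradiated, and 95.6, 127, 127 and 122 in sham libraries. Both irradiated groups lay above sham, with a rise of 0.47 ± 0.128 depleted against sham (adjusted p = 0.0239) and a difference of 0.45 ± 0.128 irradiated against sham (adjusted p = 0.0658). Endothelial markers moved with it: 3 of 12 rose depleted against sham, their mean log2 level being 6.75 ± 0.359 in depleted, 7.06 ± 0.442 in irradiated and 6.07 ± 0.201 in sham epithelial libraries, and their summed counts 1923 to 3047 in depleted, 1961 to 3750 in irradiated and 1101 to 1579 in sham libraries. None of the 12 was at 0 in all libraries, and their part in the Fzd4 result was not tested. Epithelial Fzd2 had 92.0, 123, 139 and 88.5 in depleted, 132, 105, 141 and 129 in irradiated, and 169, 150, 163 and 134 in sham libraries, with overlap of 1 depleted library (-0.49 ± 0.143 depleted against sham, adjusted p = 0.0323). Mesenchymal Fzd3 had 167, 129, 150 and 167 in depleted, 123, 118, 129 and 123 in irradiated, and 170, 151, 187 and 185 in sham libraries. Irradiated libraries lay below sham and fell by 0.48 (SE 0.107, adjusted p = 0.0228), and depleted libraries overlapped both groups (0.30 ± 0.107 against irradiated, adjusted p = 0.146). Without single libraries these calls ended as follows: Fzd4 without sham replicate 1 or depleted replicate 1, 2 or 4 (adjusted p up to 0.0712), Fzd2 without sham replicate 1, 2 or 3 or depleted replicate 1 or 4 (up to 0.111), and Fzd3 without irradiated replicate 2 or sham replicate 3 or 4 (up to 0.0877). The remaining receptors passed in no comparison. Fzd1, the mesenchymal receptor with the highest level, had 1566, 1379, 1419 and 1656 in depleted, 1202, 1360, 1324 and 1222 in irradiated, and 1440, 1182, 1471 and 1415 in sham libraries, with depleted above irradiated libraries (0.23 ± 0.0832, adjusted p = 0.147). Lrp5, the epithelial receptor gene with the highest level, had 2143, 2134, 1969 and 2334 in depleted, 2113, 2171, 2189 and 1947 in irradiated, and 2182, 1930, 1884 and 1941 in sham libraries of the epithelial fraction, with no call. Epithelial Fzd1 lay at 363 to 481 and Fzd3 at 107 to 181, and mesenchymal Fzd2 at 194 to 397, Fzd4 at 740 to 1079 and Lrp5 at 1379 to 1753. Over all 12 epithelial libraries Fzd5 lay at 1175 to 1581, Fzd6 at 418 to 513, Fzd8 at 186 to 251 and Lrp6 at 1863 to 2194. In mesenchymal libraries Fzd5 lay at 183 to 262, Fzd6 at 31.6 to 71.2, Fzd8 at 89.7 to 134 and Lrp6 at 2355 to 2834.

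The R-spondin receptors Lgr4, Lgr5 and Lgr6, the ligase gene Rnf43 and the tested R-spondins other than Rspo1 were not called. Mesenchymal Lgr6 had 484, 502, 601 and 538 in depleted, 747, 657, 729 and 582 in irradiated, and 865, 862, 492 and 481 in sham libraries. Sham replicates 1 and 2 were far above replicates 3 and 4 of the same group (-0.29 ± 0.192 depleted against sham, adjusted p = 0.349). Mesenchymal Rspo2 lay at 4.03 to 19.3 in depleted, 12.2 to 28.1 in irradiated and 10.8 to 26.2 in sham libraries, and Rspo3 at 19.1 to 41.6 in depleted, 17.3 to 41.3 in irradiated and 11.6 to 27.3 in sham libraries. Both overlapped throughout. Epithelial Lgr6 varied within groups and lay at 21.0 to 165. Over all epithelial libraries Lgr4 lay at 47.0 to 94.4, Lgr5 at 5.87 to 15.7 and Rnf43 at 474 to 669, and over all mesenchymal libraries at 159 to 265 for Lgr4, 14.6 to 36.1 for Lgr5 and 4.04 to 26.2 for Rnf43.

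Of the other secreted antagonists, Sfrp2 was called in the epithelial and Frzb in the mesenchymal fraction. Epithelial Sfrp2 had 33.7, 16.5, 70.0 and 44.3 in depleted, 22.5, 40.2, 23.5 and 57.1 in irradiated, and 15.6, 7.43, 12.5 and 9.37 in sham libraries. Both irradiated groups lay above sham, with rises of 1.66 ± 0.395 depleted (adjusted p = 0.0138) and 1.53 ± 0.395 irradiated against sham (adjusted p = 0.0476). The irradiated call ended when any 1 of sham replicates 2 to 4 was left out, as with irradiated replicates 2 and 4 and with depleted replicates 1 and 4 (adjusted p up to 0.166). That call also ended with a pseudocount of 8, no filter, quantile scaling, the replicate block and edgeR. The leukocyte, mesenchymal marker and mesothelial covariates ended it too. With the level of mesenchymal and mesothelial markers as a covariate the depleted change was -0.48 ± 0.600 (adjusted p = 0.878), and with mesothelial markers alone 0.07 ± 0.452 (adjusted p = 0.968). Of 7 pan-mesenchymal markers 4 rose in these libraries depleted against sham, with summed normalised counts of 8445 to 10042 in depleted, 7208 to 7819 in irradiated and 5959 to 6560 in sham libraries. The fibroblast lists of that covariate did not move alike. Of 7 alveolar fibroblast markers 0 rose and 1 fell (level difference -0.15, exact permutation p = 0.0571). Of 8 adventitial fibroblast markers 3 rose and 2 fell (0.34, exact permutation p = 0.0286). The part of these cell types in the epithelial Sfrp2 result was not tested. Mesenchymal Sfrp2 did not pass and had 44.1, 50.4, 51.2 and 21.2 in depleted, 131, 69.4, 51.9 and 134 in irradiated, and 78.1, 78.6, 32.3 and 34.9 in sham libraries. There, depleted lay below irradiated libraries (-1.16 ± 0.412, adjusted p = 0.162).

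Frzb, which codes for another secreted Frizzled-related protein, had 45.1, 25.2, 34.8 and 33.3 in depleted, 17.5, 22.8, 15.3 and 12.2 in irradiated, and 19.3, 21.5, 4.04 and 15.8 in sham mesenchymal libraries. Depleted libraries lay above both other groups (1.32 ± 0.395 against sham, adjusted p = 0.0351, and 0.99 ± 0.395 against irradiated, adjusted p = 0.196). The call ended without sham replicate 3, the library at 4.04, where the change was 0.82 (adjusted p = 0.0681), or without depleted replicate 1, 3 or 4 (adjusted p up to 0.107). Sfrp4, a further member of that family, lay at 143 to 352 in depleted, 106 to 249 in irradiated and 88.2 to 157 in sham mesenchymal libraries (1.01 ± 0.315 depleted against sham, adjusted p = 0.0539). Dkk3, Wif1 and Notum were called in no comparison. Epithelial Notum had 180, 141, 141 and 159 in depleted, 122, 161, 184 and 164 in irradiated, and 134, 152, 145 and 127 in sham libraries, with overlap throughout. Epithelial Dkk3 lay at 136 to 183 and mesenchymal Notum at 137 to 192. Wif1, a secreted Wnt inhibitor, lay at 21.2 to 32.5 in epithelial and 152 to 429 in mesenchymal libraries. Mesenchymal Dkk3 had 2043, 1931, 2546 and 2283 in depleted, 2249, 1972, 2348 and 2250 in irradiated, and 2537, 2433, 2495 and 2788 in sham libraries, with 1 depleted library among the sham values (-0.23 ± 0.0882, adjusted p = 0.0976).

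Among transducers and targets, cyclin D1 gave the largest called change. Mesenchymal Ccnd1 had 140, 166, 111 and 93.7 in depleted, 216, 212, 164 and 167 in irradiated, and 94.3, 96.0, 68.6 and 83.2 in sham libraries. Irradiated libraries lay above every sham library, and depleted libraries reached into both other groups. The rise was 1.14 ± 0.169 irradiated against sham (adjusted p = 0.00144), which held without any single library, and 0.55 ± 0.169 depleted against sham (adjusted p = 0.0378), which ended without sham replicate 1, 3 or 4 or depleted replicate 1 or 2 (adjusted p up to 0.127). Depleted against irradiated gave -0.59 ± 0.169 (adjusted p = 0.0779). Epithelial Ccnd1 had 1243, 1351, 1557 and 1009 in depleted, 2007, 1862, 1556 and 1671 in irradiated, and 1258, 1108, 1242 and 1412 in sham libraries. Irradiated libraries lay above sham there too, just short of the threshold (0.50 ± 0.124, adjusted p = 0.0515), and depleted against irradiated gave -0.47 ± 0.124 (adjusted p = 0.132). On the recovered reads, DESeq2 called the rise of epithelial Ccnd1 in irradiated against sham libraries (adjusted p = 0.00111). It also called Ccnd1 lower in depleted than in irradiated libraries, in the epithelial (adjusted p = 0.00889) and in the mesenchymal fraction (adjusted p = 0.0402). For depleted against irradiated, DESeq2 called more of all genes than limma, 289 against 79 epithelial and 785 against 448 mesenchymal. That epithelial Ccnd1 difference stayed uncalled in 24 of 26 alternatives.

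Several marker lists moved with Ccnd1 in the mesenchymal fraction. Irradiated against sham, the neutrophil level rose by 1.74 and the macrophage level by 1.55 (exact permutation p = 0.0286 each). Of 7 alveolar fibroblast markers 0 were called, and their level did not pass (difference -0.32, exact permutation p = 0.114). Leukocyte markers rose, as the neutrophil and macrophage lists did. The mean log2 level of 12 markers was 6.11 ± 0.508 in depleted, 6.46 ± 0.462 in irradiated and 5.28 ± 0.624 in sham libraries, 2 of 12 rose irradiated against sham (level difference 1.18, exact permutation p = 0.0286, the smallest possible), and their summed counts were 956 to 2068 in depleted, 1240 to 2667 in irradiated and 445 to 1201 in sham libraries. With the leukocyte level as a covariate mesenchymal Ccnd1 was 0.69 ± 0.189 higher in irradiated than in sham libraries (adjusted p = 0.257), and that fit called 54 of 16624 genes. The change was 0.70 ± 0.199 with the epithelial marker covariate (adjusted p = 0.265) and 0.99 ± 0.211 with the alveolar fibroblast covariate (adjusted p = 0.052). With the mesothelial covariate the call held (0.94 ± 0.197, adjusted p = 0.0448). Depleted against sham, the leukocyte covariate gave 0.23 ± 0.163 for Ccnd1 (adjusted p = 0.447). Of 5 proliferation markers 2 were tested there, and their mean log2 level was 5.79 ± 0.184 in depleted, 5.49 ± 0.401 in irradiated and 4.76 ± 0.533 in sham libraries. Both rose depleted against sham (level difference 1.03, exact permutation p = 0.0286) and neither was called irradiated against sham (0.73, exact permutation p = 0.114). Their summed counts were 122 to 174 in depleted, 92.6 to 157 in irradiated and 56.8 to 111 in sham libraries, and their part in the Ccnd1 result was not tested. In the epithelial fraction 3 proliferation markers were tested and 0 were called. There the proliferation level went the other way, by -1.01 irradiated against sham (exact permutation p = 0.143) and -1.27 depleted against sham (exact permutation p = 0.0286).

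Ctnnb1 fell in the epithelial fraction with 10296, 11481, 11448 and 10079 in depleted, 12487, 10741, 11666 and 10447 in irradiated, and 12870, 12753, 12217 and 12882 in sham libraries. Depleted lay below sham (-0.23 ± 0.0607, adjusted p = 0.0197), a fold of 0.852, and the call ended without sham replicate 4 or depleted replicate 1 or 4 (adjusted p up to 0.0712). Mesenchymal Ctnnb1 had 2731, 2742, 2744 and 2872 in depleted, 2922, 2821, 2873 and 2900 in irradiated, and 2809, 2774, 2684 and 2651 in sham libraries, with no call. Lef1, the transcription factor, had low epithelial counts of 7.86, 12.7, 6.77 and 2.39 in depleted, 16.6, 30.7, 17.0 and 17.7 in irradiated, and 12.7, 22.3, 16.1 and 10.4 in sham libraries. Depleted lay below irradiated libraries (-1.47 ± 0.388) without passing the threshold (adjusted p = 0.107), and the lowest value lies within what 3 reads are worth (2.36 to 3.81). Mesenchymal Lef1 had 107, 135, 68.6 and 72.6 in depleted, 121, 140, 116 and 159 in irradiated, and 93.3, 128, 78.7 and 93.1 in sham libraries, with overlap throughout. Nkd1, an inhibitor that acts on Dishevelled, had epithelial counts of 3389, 3273, 2680 and 4359 in depleted, 2424, 3238, 2835 and 2489 in irradiated, and 2669, 2900, 2597 and 2657 in sham libraries (0.32 ± 0.132 depleted against sham, adjusted p = 0.155). Mesenchymal Nkd1 had 498, 479, 471 and 436 in depleted, 656, 541, 603 and 511 in irradiated, and 606, 612, 503 and 460 in sham libraries, with depleted below irradiated libraries (-0.29 ± 0.0999, adjusted p = 0.137). Tcf7, a partner of β-catenin on DNA, lay at 63.5 to 117 in epithelial and 113 to 172 in mesenchymal libraries, with no call. Of the genes known as β-catenin targets that also restrain the pathway, Axin2 and Znrf3 were called lower in depleted than in sham libraries in both fractions, while limma called Nkd1 and Notum in neither. DESeq2 called epithelial Nkd1 higher in depleted than in sham libraries (0.34 ± 0.121, adjusted p = 0.0444). Exons of Ctnnb1, Lef1, Axin2, Ccnd1, Sfrp2 and Notum overlap genes on the opposite strand, and whether counting used strand is not given in the sources used here.

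**Figure D4:**
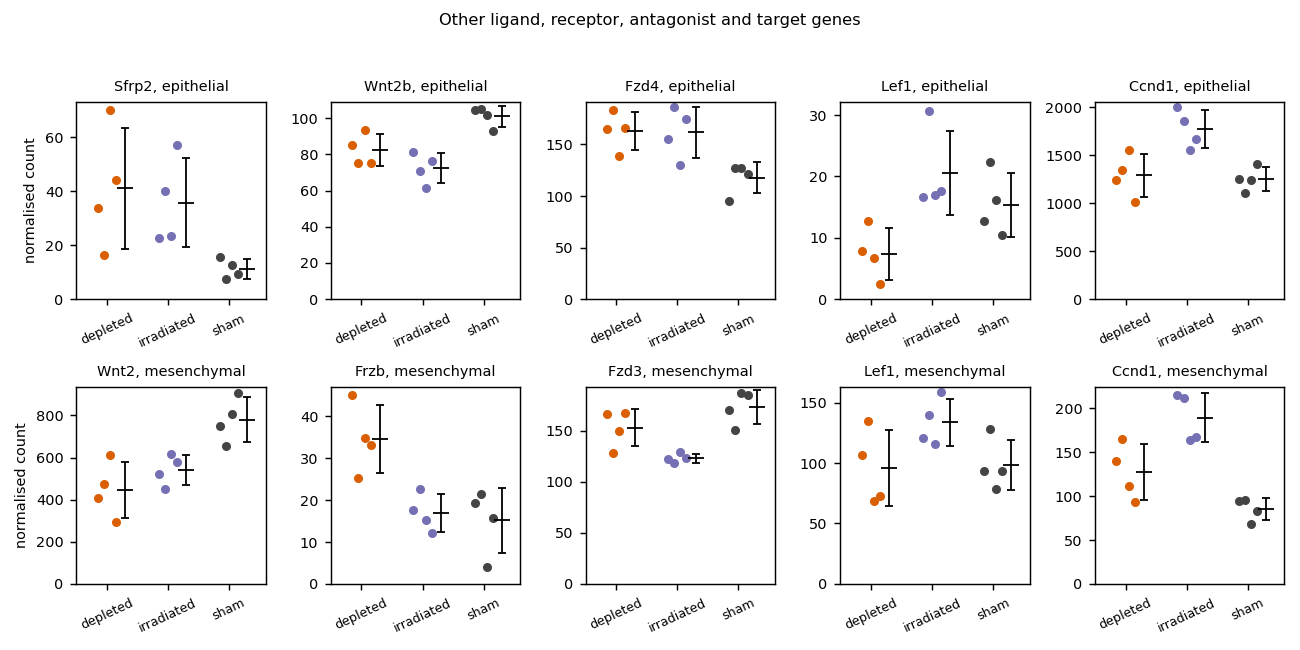
Normalised counts per library of Sfrp2, Wnt2b, Fzd4, Lef1 and Ccnd1 in the epithelial fraction (top) and of Wnt2, Frzb, Fzd3, Lef1 and Ccnd1 in the mesenchymal fraction (bottom), with the mean and SD of 4 libraries beside each group. Irradiated libraries of mesenchymal Ccnd1 lie between 164 and 216, above all sham libraries (68.6 to 96.0).

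The difference between the responses of the fractions was tested in 1 fit of all 24 libraries on 15092 genes tested in both tables, 35 of them members. Limma called 0 members for irradiated against sham (background 0.629%) and 0 for depleted against irradiated (background 0.596%). At an unadjusted p under 0.05 in limma there were 6 members in each. The share of all genes at that level is not given here, so these counts are not read as an excess. The nearest was Wnt2b, whose response to irradiation was 0.63 lower on the log2 scale in the epithelial than in the mesenchymal fraction (-0.63 ± 0.167, adjusted p = 0.0742), followed by Nkd1 for depleted against irradiated (0.60 ± 0.168, adjusted p = 0.127). Same-numbered libraries of a group may come from 1 mouse, which the labels do not state: their deviations correlated at -0.04 to 0.255 across the fractions, over 0.1 in 7 of 12 pairs, and a fit with group and number as the mouse also called 0 members in both. The response of depleted against sham was not tested between the fractions. A call in 1 fraction alone therefore does not show that the fractions differed.

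Beyond the members, 86 other Wnt pathway genes were listed, of which 68 were tested in the epithelial and 70 in the mesenchymal fraction. Depleted against sham, 6 of 68 rose (6.52% of all tested genes) and 5 fell (4.76%) in the epithelial fraction, and 6 of 70 rose (8.51%) and 11 fell (6.7%) in the mesenchymal fraction. Their medians were -0.03 and -0.01. In the epithelial fraction Frat2, a β-catenin stabiliser, rose (0.71 ± 0.123, adjusted p = 0.00118), as did the glypican genes Gpc3 (0.72 ± 0.120) and Gpc4 (0.39 ± 0.0833), while Dact3, a Dishevelled antagonist, fell by 1.06 (SE 0.193). Dact3 also fell in the mesenchymal fraction, by 0.70 against sham (SE 0.108, adjusted p = 0.000493) and by 0.42 against irradiated libraries (SE 0.108, adjusted p = 0.0467), at 385 ± 53.7 in depleted, 516 ± 61.7 in irradiated and 623 ± 62.5 in sham libraries. The call against irradiated libraries ended when any 1 of 9 libraries was left out (all but sham replicate 2, irradiated replicate 2 and depleted replicate 3, adjusted p up to 0.154), and with the 2 groups alone, edgeR, and the mesothelial and alveolar fibroblast covariates. Mesenchymal Tnfrsf19, a target of β-catenin, averaged 1036 ± 171 in depleted, 1336 ± 141 in irradiated and 1849 ± 131 in sham libraries (SD, n = 4 each), a fall of 0.85 depleted (adjusted p = 0.000159) and of 0.47 irradiated against sham (adjusted p = 0.0328). The depleted call held in every alternative, and the irradiated call ended without any 1 of sham replicates 1, 3 and 4 and irradiated replicates 1, 2 and 4 (adjusted p up to 0.110) and with each of 4 marker covariates. Ror1, a co-receptor for Wnt5a, rose by 1.00 ± 0.170 and the target Myc by 0.74 ± 0.165 in mesenchymal depleted against sham libraries. With each of the 3 marker covariates fitted in the epithelial fraction the calls there of Frat2, Gpc3, Gpc4 and Dact3 ended, and with the epithelial marker and alveolar fibroblast covariates so did the mesenchymal calls of Dact3, Ror1 and Myc. Irradiated against sham, 2 of 68 epithelial genes (Prickle2 and Frat2, both higher; background 3.14%) and 2 of 70 mesenchymal genes (Celsr2 higher, Tnfrsf19 lower; background 3.8%) were called. Leaving out 1 library ended these calls too: Prickle2 without sham replicate 1 or 4 or any 1 of irradiated replicates 1, 2 and 4 (adjusted p up to 0.103), Frat2 without irradiated replicate 2 or sham replicate 3 or 4 (up to 0.0639), and Celsr2 without irradiated replicate 2 or sham replicate 3 (up to 0.0601). Depleted against irradiated, limma called 0 of 68 epithelial genes (edgeR 0, DESeq2 0) and Dact3 alone of 70 mesenchymal genes. At an unadjusted p under 0.05 in limma there were 12 epithelial genes, not read as an excess since the share of all genes is not given here.

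**Figure D5:**
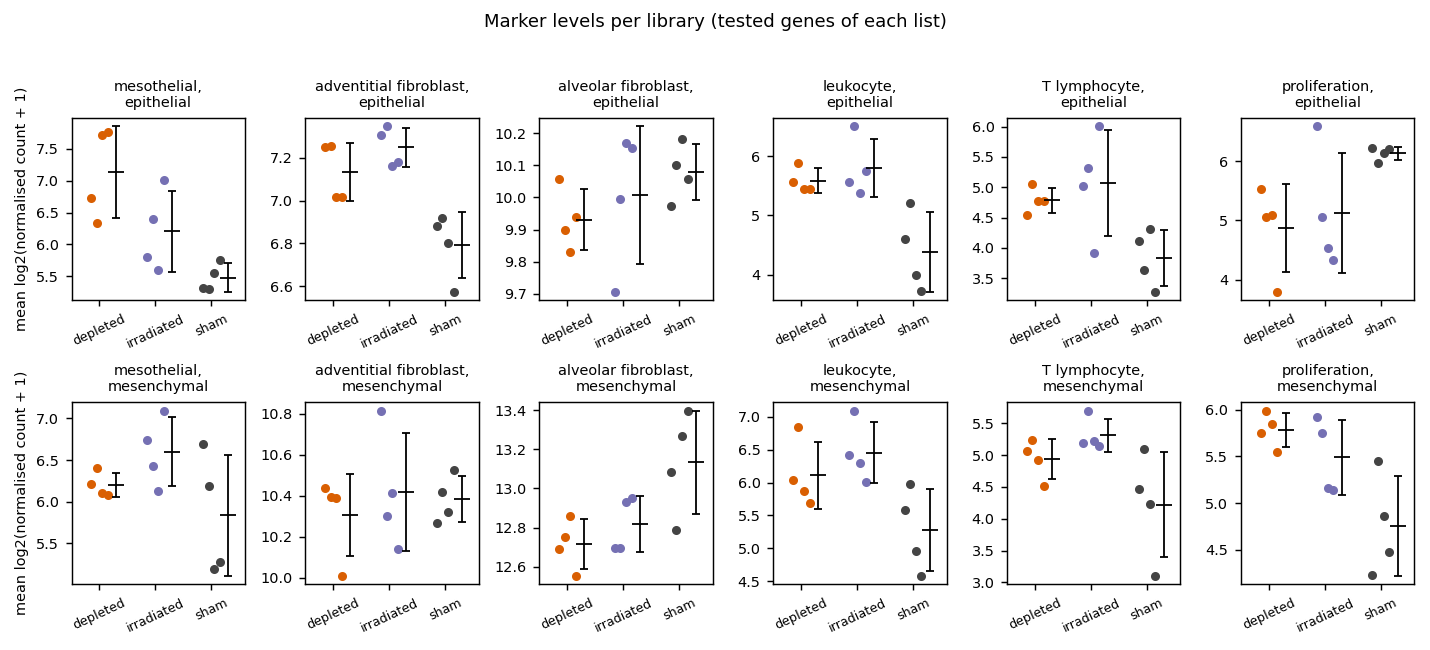
Mean log2(normalised count + 1) per library of the tested markers of 6 lists in the epithelial (top) and mesenchymal (bottom) fraction, with the mean and SD of 4 libraries beside each group; each panel has its own axis, which does not start at 0. Mesothelial levels in the epithelial fraction averaged 7.13 in depleted, 6.21 in irradiated and 5.48 in sham libraries.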

How the data were processed

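RNA of 24 libraries was measured with ribosomal RNA depletion. The submitters' processing notes name cutadapt 1.5, STAR 2.2.2a, SAMtools 1.8, RSEM 1.3.0 and DESeq2, with build GRCm38. The deposited values are a signal in normalised counts, 1 table per fraction with its own scale; 100% of values were whole multiples of 1 step per library within 0.001, so whole reads were recovered. Symbols (48349 identifiers) and positions came from GENCODE M21. Tests used limma 3.58.1 on log2(value + 1), pseudocount 1 (trend, robust; R 4.3.3), 3 groups per fit and Benjamini-Hochberg adjustment over 16626 epithelial and 16624 mesenchymal genes; this understates changes of low genes. Alternatives were other pseudocounts, filters and scalings, a replicate block, 2 groups alone, library weights, edgeR 4.0.16 and DESeq2 1.42.0 on recovered reads, marker levels as covariates, and leaving out each library. Members called, 5 pathway readouts (Axin2, Lef1, Nkd1, Ctnnb1 and Ccnd1) and the highest member per role are given in every library of the fraction concerned, the others by range. The members and lists were chosen with earlier results of these data known. Libraries come from 4 mice per group; replicate numbers were not taken to pair the samples, since not every same-numbered pair deviated together, within or across fractions. A count of 0 allows 3 reads, for counting error only.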

Additional observations from a re-analysis of the deposited data

Results flagged for a closer look

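Within groups of 4 libraries of the 22 named members (132 groups), 4 libraries stood apart by Dixon's test at its 95% critical value, and chance flags about 1 group in 20. Epithelial Lef1 had a normalised count of 30.7 in irradiated replicate 2 and 16.6 to 17.7 in the other irradiated libraries. Mesenchymal Ctnnb1 had 2872 in depleted replicate 4 and 2731 to 2744 in the others of that group. Mesenchymal Porcn had 226 in depleted replicate 4 and 147 to 160 in the other depleted libraries. Mesenchymal Wnt2b had 166 in sham replicate 3 and 206 to 212 in the other sham libraries.

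Celsr2, a planar polarity cadherin gene outside the member list, had a response to irradiation that differed between the fractions by -0.98 on the log2 scale (epithelial minus mesenchymal; SE 0.220, adjusted p = 0.0358, limma). The call ended when any 1 of 10 libraries was left out: epithelial sham replicates 1, 3 and 4, epithelial irradiated replicates 1, 2 and 4, mesenchymal sham replicates 3 and 4, and mesenchymal irradiated replicates 1 and 2 (adjusted p up to 0.0874). Mesenchymal Celsr2 averaged 66.5 ± 12.3 in irradiated and 33.5 ± 9.43 in sham libraries, and epithelial Celsr2 351 ± 39.0 in irradiated and 348 ± 26.9 in sham libraries (SD, n = 4 each).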

How the results depend on the processing

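Numbers of members called are given here, with the number of the reported fit in brackets. For epithelial irradiated against sham (4) they were 2 with no filter, 7 with library weights, and 0 with the leukocyte, the mesenchymal marker or the mesothelial level as a covariate. For epithelial depleted against irradiated (0) DESeq2 gave 2. For epithelial depleted against sham (9) the leukocyte covariate gave 1, and the mesenchymal marker and mesothelial covariates 0 each. For mesenchymal irradiated against sham (3) DESeq2 gave 6, the mesothelial covariate 1, and the leukocyte, epithelial marker and alveolar fibroblast covariates 0. For mesenchymal depleted against irradiated (1) the count was 0 with no filter, 2 at a mean of at least 50, 4 with DESeq2, 3 with the epithelial marker covariate, and 0 with the other 3 covariates. For mesenchymal depleted against sham (8) the leukocyte covariate gave 3, the mesothelial 5, and the epithelial marker and alveolar fibroblast covariates 1 each. For the difference between fractions, irradiated against sham (0), library weights gave 1. The mesothelial and alveolar fibroblast covariates were added after seeing the data, and the causes of these moves were not tested. Over all genes, the calls of the same fits moved as well: 38 to 964 around 522, 14 to 289 around 79 and 18 to 2078 around 1876 in the epithelial fraction, and 51 to 1055 around 631, 231 to 785 around 448 and 397 to 3293 around 2528 in the mesenchymal fraction (irradiated against sham, depleted against irradiated, depleted against sham). In that order edgeR on the recovered reads called 558, 92 and 1792 epithelial and 582, 424 and 2559 mesenchymal genes. DESeq2 on the recovered reads called 816, 289 and 1917 epithelial and 1055, 785 and 2731 mesenchymal genes, so its added member calls came with more calls over all genes.

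With the replicate number as a block, the counts were 3, 0 and 9 in the epithelial and 3, 2 and 10 in the mesenchymal fraction (irradiated against sham, depleted against irradiated, depleted against sham). That block ended the calls of epithelial Sfrp2 and Wnt2b (irradiated against sham), epithelial Axin2 (depleted against sham) and mesenchymal Sfrp1 (depleted against irradiated). For the differences between fractions the block was group and number as the mouse, and the count was 0 for both. Same-numbered libraries of a fraction correlated at -0.111 to 0.172 in their deviations, and those of a group across the fractions at -0.037 to 0.255 (7 of 12 over 0.1), so the numbers were not taken to pair samples.

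Leaving out 1 library gave 0 to 6 epithelial calls irradiated against sham (0 when any 1 of sham replicates 2 to 4, or irradiated replicate 2 or 4, was left out), 0 to 2 depleted against irradiated (2 without depleted replicate 3, 1 without depleted replicate 2) and 5 to 10 depleted against sham (5 without depleted replicate 4). Mesenchymal calls were 1 to 6 irradiated against sham (1 when irradiated replicate 2 or sham replicate 3 or 4 was left out, 6 without sham replicate 2), 0 to 2 depleted against irradiated (0 without irradiated replicate 2 or 3 or depleted replicate 1 or 4, 2 without depleted replicate 2) and 5 to 9 depleted against sham (5 without sham replicate 3). Both differences between fractions gave 0 to 1. Over all genes, leaving out 1 library gave 214 to 653, 36 to 199 and 1187 to 1934 epithelial calls and 184 to 1073, 182 to 806 and 1571 to 2732 mesenchymal calls.

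Directions that turned were mostly of small log2 changes. Irradiated against sham, the leukocyte covariate gave -0.68 for epithelial Lef1, -0.18 for epithelial Nkd1, -0.0042 for mesenchymal Lef1 and -0.11 for mesenchymal Nkd1, and mesenchymal Nkd1 was -0.086, -0.034 and -0.067 with the epithelial marker, mesothelial and alveolar fibroblast covariates. When 1 library was left out, epithelial Nkd1 ran from -0.069 to 0.070 in that comparison, depleted against sham epithelial Ccnd1 from -0.069 to 0.14 and mesenchymal Lef1 from -0.25 to 0.067, and depleted against irradiated mesenchymal Axin2 from -0.039 to 0.080. Depleted against irradiated, epithelial Ctnnb1 was 0.032 and 0.015 with the mesenchymal marker and mesothelial covariates, and mesenchymal Axin2 -0.017 with quantile scaling, -0.044 with the leukocyte and -0.053 with the mesothelial covariate. Depleted against sham, the mesenchymal marker covariate gave 0.0079 for epithelial Ctnnb1, -0.48 for Sfrp2, -0.095 for Csnk1g1 and 0.050 for Tle2, and the mesothelial covariate -0.028 for Csnk1g1. Mesenchymal Ctnnb1 was -0.0076 with quantile scaling, -9.8e-05 with the epithelial marker and -0.021 with the alveolar fibroblast covariate, and mesenchymal Lef1 0.082 with library weights. Values of 3 reads, 2.36 to 3.81 epithelial and 2.48 to 3.66 mesenchymal normalised counts, limit the low members such as epithelial Lef1.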
